A study of Rattus norvegicus with 16 samples.

Results

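The comparison set the 12 arrays of the 3 later times against the 4 arrays of T0 and asked which genes stood at a changed level, by a like amount, at each later time and in both hippocampal fields. All 16 of the series' 16 arrays took part, chosen by the time in their titles. The tissue was rat hippocampus kept as organotypic slice culture, in which brain slices stay alive in a dish with their neurons, glia and part of their wiring. The groups were CA1 and CA3 at T30m, T3h and T12h, taken to mean 30 min, 3 h and 12 h after T0, and CA1 and CA3 at T0 itself, each with 2 arrays labelled as biological replicates. The title of the series gives oxidative stress as its theme. The agent, its dose, the strain and age of the rats, the number of animals, and how T0 slices were handled are not stated in the labels. No group is labelled as an untreated culture of a later time, so time in culture and any treatment cannot be told apart.

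Genes that stand at a like level from 30 min to 12 h are of interest because regulated transcripts usually follow a course. Immediate early genes are switched on within minutes and shut off again by their own products, stress response genes build up over hours, and stable mRNAs take many hours to decay. Dividing cells carry a further programme: genes for DNA replication are driven by E2F factors before S phase, and genes for mitosis by the MuvB complex with B-Myb and Foxm1, which acts through a promoter element called CHR and through CCAAT boxes bound by NF-Y. In a slice culture the cells that divide are mainly glia, microglia, progenitors and cells of the vessels and meninges, while pyramidal neurons do not divide.

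Of the 135 genes that fell (1.3% of the genes tested), 28 were in lists for mitosis and DNA replication, so the stretches around the start sites of 5 genes of dividing cells are shown. They are Mki67 and those of the 5 genes that met the rule of like change and passed with pair means (defined with the results) that the promoter table holds. That of Dusp1 is added because it had the largest rise among the genes of like change. Each line gives 200 bases around the RefSeq start site in build GRCr8, most of them before it, 5′ to 3′ on the gene's own strand. In all but Dusp1 capitals mark the CHR letters TTTGAA, the box spelled CCAAT, and 3 strings known to bind E2F factors, which are TTTCCCGC, TTTGGCGC and TTTCGCGC. In Dusp1 they mark TGACG, the core of the cyclic AMP response element, whose whole form is TGACGTCA. Both strands were read, so reverse complements are marked too, and neighbouring matches can overlap, as in Mki67.
Mcm3 (chr9:30733722-30733921, minus strand): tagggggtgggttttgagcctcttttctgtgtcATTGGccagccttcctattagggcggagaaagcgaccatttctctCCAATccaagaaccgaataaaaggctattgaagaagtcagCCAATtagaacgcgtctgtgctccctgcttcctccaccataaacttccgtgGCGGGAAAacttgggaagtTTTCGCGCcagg
Asf1b (chr19:41100328-41100527, minus strand): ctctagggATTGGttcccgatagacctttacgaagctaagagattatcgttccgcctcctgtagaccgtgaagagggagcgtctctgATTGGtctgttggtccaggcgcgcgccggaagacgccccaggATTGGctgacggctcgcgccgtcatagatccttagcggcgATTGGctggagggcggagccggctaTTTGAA
Spc25 (chr3:74396694-74396893, minus strand): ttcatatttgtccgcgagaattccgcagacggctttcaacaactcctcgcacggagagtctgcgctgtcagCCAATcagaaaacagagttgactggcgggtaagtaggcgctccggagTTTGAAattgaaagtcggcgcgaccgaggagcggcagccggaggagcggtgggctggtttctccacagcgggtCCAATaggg
Plk4 (chr2:125730305-125730504, plus strand): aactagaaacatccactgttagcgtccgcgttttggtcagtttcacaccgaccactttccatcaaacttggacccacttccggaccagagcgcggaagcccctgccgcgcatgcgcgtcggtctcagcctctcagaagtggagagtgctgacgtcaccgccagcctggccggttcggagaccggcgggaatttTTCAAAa
Mki67 (chr1:199952569-199952768, minus strand): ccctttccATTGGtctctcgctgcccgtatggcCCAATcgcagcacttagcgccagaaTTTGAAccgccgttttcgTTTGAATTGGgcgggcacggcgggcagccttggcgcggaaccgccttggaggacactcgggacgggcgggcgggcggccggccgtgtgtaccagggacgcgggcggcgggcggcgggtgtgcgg
Dusp1 (chr10:17184678-17184877, plus strand): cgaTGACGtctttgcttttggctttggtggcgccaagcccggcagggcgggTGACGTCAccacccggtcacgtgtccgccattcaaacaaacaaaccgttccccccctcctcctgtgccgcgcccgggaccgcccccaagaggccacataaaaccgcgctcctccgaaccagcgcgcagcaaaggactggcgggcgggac

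The letter strings were counted in the whole window of 300 bases, from 250 before to 50 after each start. CHR was found in 18.1%, CCAAT in 37.7% and an E2F string in 1.82% of 27457 rat promoters. Of the 135 fallen genes 112 had a promoter in the table, and 30.4% of these held CHR, 46.4% CCAAT and 10.7% an E2F string. Among the 55 promoters of the 64 genes of like fall the shares were 29.1%, 41.8% and 10.9%. Among the 25 promoters of 28 fallen genes from the mitosis and DNA replication lists the shares were 40%, 72% and 28%. Of the 11 promoters of 13 genes that rose (0.125% of the genes tested), 45.5% held TGACG, against 22% of all promoters, and so did 33% of the fallen genes' promoters, 32% of those from the 2 lists and 23.6% of those of the genes of like fall. The 27457 promoters were not limited to genes measured on the arrays. The 112 include the 25 from the 2 lists, so their shares are not separate from those of the lists. These are counts of letters in a window, and no binding was measured.

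Of the control signals, that of the Bacillus transcripts had the largest difference in mean between the groups. The mean log2 signal of the Bacillus control transcripts was 5.48 on the later arrays (4.26 to 6.68) and 6.58 on the T0 arrays (6.29 to 6.85). The BioB hybridization control averaged 7.84 (5.76 to 10.6) on the later and 7.29 (6.43 to 8.03) on the T0 arrays, and the GAPDH 3′ minus 5′ signal 2.38 (1.29 to 3.93) on the later and 2.43 (1.93 to 3.08) on the T0 arrays. The CA1 and CA3 arrays of a time and replicate number, here called a pair, deviated together, so the 16 arrays amount to at most 6 later pairs and 2 T0 pairs. Markers of brain tissue were well above the array medians, which ran from 5.81 to 5.94: the astrocyte filament gene Gfap averaged 12.6 and the myelin gene Mbp 11 over all arrays. The field markers Wfs1 for CA1 and Grik4 for CA3 averaged 6.26 and 6.04 over all arrays, which does not compare the fields. The linear levels of 8 CA1 field markers summed at T0 to 287 and 265 on the CA1 arrays. On the CA3 arrays of T0 they summed to 328 and 327, so these markers did not set CA1 apart at T0. Those of 5 CA3 field markers summed at T0 to 630 and 647 on the CA1 arrays and to 1020 and 752 on the CA3 arrays.

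Genes of mitosis and DNA replication were among those that fell, and few genes rose. Over 10411 genes with 1 probe set each, 135 were lower (1.3%) and 13 higher (0.125%) in the later arrays, in limma's fit of all 16 arrays with region as a term and adjusted p under 0.05. Over 15866 probe sets 185 passed (1.17%), of which 166 were lower (1.05%) and 19 higher (0.12%). With the pair as a random block 43 probe sets fell (0.271%), among them those of 35 genes (0.336%), and 1 rose (0.0063%). With each pair averaged over its fields, which leaves 6 later values against 2, 9 fell (0.0567%), with 7 genes among them (0.0672%), and 0 rose (limma; 971 at an unadjusted p under 0.05 in either direction, and 793 expected by chance). Without the T0 replicate 2 pair 24 probe sets passed, 22 of them among the 185. Without the T0 replicate 1 pair 224 passed, 95 of them among the 185. With the signal of the Bacillus controls as a covariate 45 passed, 36 of them among the 185, and its part in the rest was not tested. The values of the 12 later arrays and those of the 4 T0 arrays did not overlap for 112 lower genes (1.08% of all genes) and 21 higher genes (0.202%), of which 79 and 7 were among the genes called.

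A gene was counted as changed by a like amount if it passed in the fit of all arrays, if its 6 changes (3 later times in 2 regions, each against T0 of the same region) had the same sign, and if the smallest was at least 0.5 times the largest in size. There were 68 such genes, 64 lower and 4 higher. They were picked on these values, so the count is a description. At T0, 39 of the 64 were higher in replicate 2 than in replicate 1 (median difference 0.134), against 4719 of all 10411 genes (median -0.032). Every one of the 6 changes subtracts the same T0 arrays of a region, and a stray value there enters the 3 changes of that region alike. All 13 genes that rose and all 135 that fell kept their sign in the 6 changes. Among the 64 the pooled change ran from -0.38 to -2.88 with a median of -0.95, and among the 4 from 0.61 to 2.05, while the median over all genes was 0.0024. The later and T0 arrays did not overlap for 42 of the 64 and for 2 of the 4. With the pair as a block 24 of the 64 passed and 0 of the 4. With pair means 5 passed: Mcm3, Asf1b, Plk4, Pimreg and Spc25. Leaving out each array and each pair in turn gave 24 further fits, and 13 of the 64 passed in all of them: the same 5, with Mki67, Racgap1, Cdca5l1, Nes, Lmnb1, Hmgn1, Rassf3 and Zfp217. None of the 4 genes that rose did. Of the 64, 26 had a mean under the lowest array median, where array signals are compressed.

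**Figure D1:**
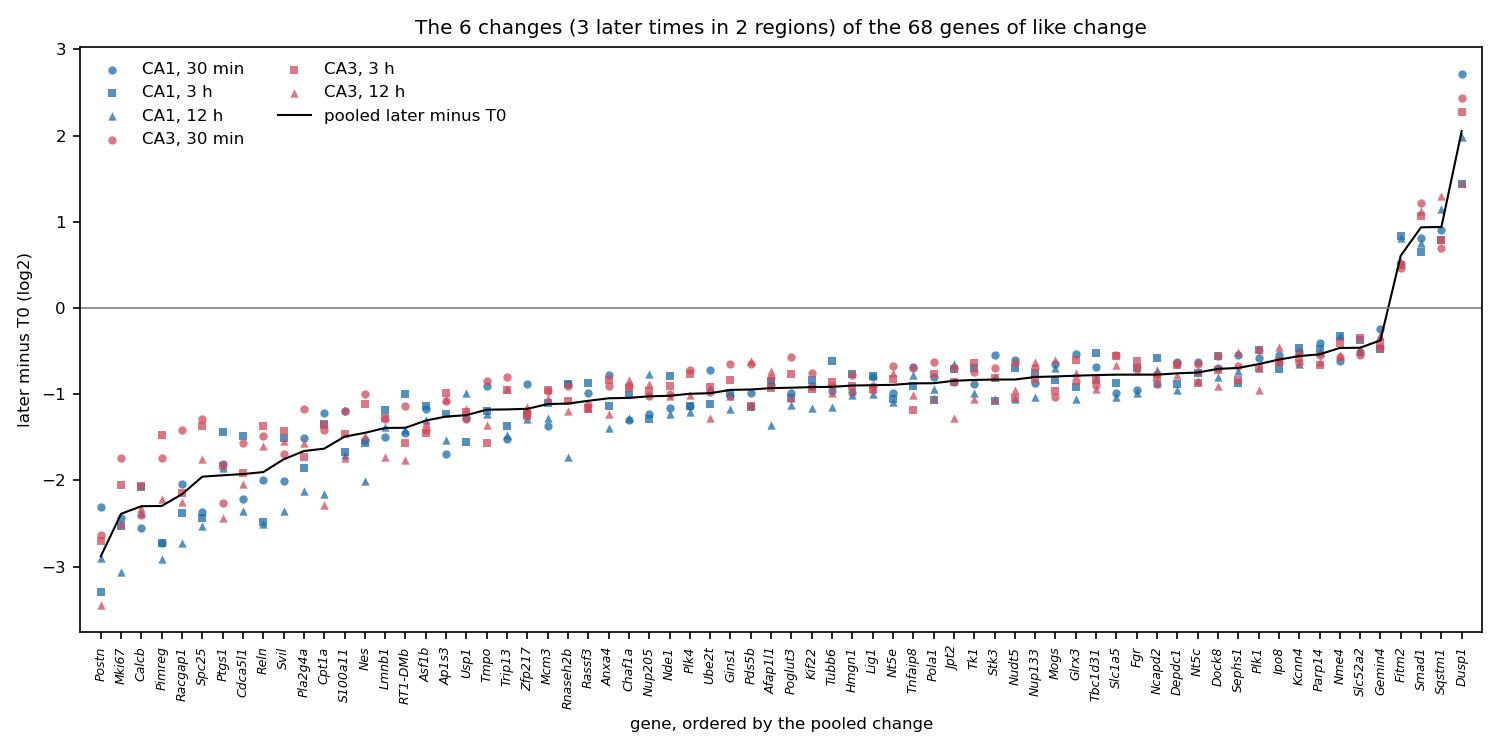
Changes from T0 on the log2 scale (vertical axis) of the 68 genes of like change, ordered by their pooled change (line). Points are the 6 changes, with colour for the region and shape for the time. The 64 lower genes lie between the pooled values -2.88 and -0.38 and the 4 higher ones between 0.61 and 2.05, and all 6 points of a gene lie on one side of 0.

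Genes of DNA replication fell, and so did Asf1b and Chaf1a, which bring histones to new DNA. Mcm3, a subunit of the replicative helicase, had log2 values from 5.29 to 5.87 on the later arrays (median 5.56), against 6.85 and 6.84 in CA1 and 6.59 and 6.47 in CA3 at T0. The lowest T0 array thus stood above the highest later one, and the 2 T0 replicates of a field were close. Mcm3 changed by -1.11 ± 0.11 (SE), a level 2.16-fold higher at T0 (adjusted p = 0.000169; 0.0341 with pair means), and by -1.16, -1.02 and -1.15 at 30 min, 3 h and 12 h. Its 12 h and 30 min levels differed by 0.01 (95% interval -0.32 to 0.34), a closeness that the rule of like change selects for.

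Asf1b, a chaperone that hands histones H3 and H4 to the assembly machinery, ran from 4.18 to 4.81 in the later arrays (median 4.43), against 5.28 and 5.92 in CA1 and 6.40 and 5.35 in CA3 at T0. The later arrays were narrow (SD 0.17, n = 12) and the T0 arrays wide (SD 0.53, n = 4), without overlap. All later values of Asf1b lay below the array medians, where signals are compressed. The change of Asf1b was -1.30 ± 0.16 (adjusted p = 0.000744; 0.0341 with pair means), at -1.30, -1.30 and -1.32 by time. Lig1, the ligase that joins fragments of the lagging strand, stood between 7.20 and 7.98 on the later arrays (median 7.67), against 8.65 and 8.60 in CA1 and 8.53 and 8.33 in CA3 at T0. Its 6 changes lay between -0.79 and -1.0, and the pooled value was -0.90 ± 0.12 (adjusted p = 0.0017). Lig1 passed with the pair block (adjusted p = 0.00838), but not with pair means (adjusted p = 0.201) or without the T0 replicate 2 pair (-0.96, adjusted p = 0.0531).

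Gins1, a subunit of the GINS complex that travels with the helicase, fell by 0.95 ± 0.15 on the log2 scale, Pola1, the catalytic subunit of the polymerase that starts new strands, by 0.87 ± 0.14, Chaf1a, a chromatin assembly factor subunit, by 1.04 ± 0.19, and Tk1, which makes thymidine phosphate for DNA, by 0.83 ± 0.17 (adjusted p = 0.00415 to 0.0295). None of these 4 had overlapping groups, and none passed with pair means. Without the CA1 T0 replicate 2 array Pola1, Chaf1a and Tk1 missed the threshold (adjusted p = 0.0579, 0.0721 and 0.166). Chaf1a also missed it without CA1 T0 replicate 1 (adjusted p = 0.0692), and Tk1 without any one of the 4 T0 arrays or CA3 T3h replicate 2 (adjusted p = 0.0511 to 0.166). With the Bacillus signal as a covariate Tk1 was at -0.50 (adjusted p = 0.161). The second Tk1 probe set was at -0.517 (adjusted p = 0.141). Gins1 missed the threshold without the T0 replicate 2 pair (adjusted p = 0.175). Several genes were named after their values were seen. Mcm3, Asf1b, Plk4 and Fam111a were named for passing with pair means. Lig1, Gins1, Trip13, Nde1, Lmnb1, Tmpo, Hmgn1, Zfp217, Rassf3, Pla2g4a and Fgr were named because they changed by a like amount and passed with the pair block, and Chaf1a, Tk1, Pola1, Plk1, Usp1 and RT1-DMb for their roles.

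Of the 22 measured genes of the DNA replication list 11 fell and 0 rose, against 1.3% and 0.125% of all genes. All 22 were negative (median -0.88). The list was chosen with earlier results of these data known, so its counts are a description. With the pair block 3 of the 11 passed, and with pair means 1. Without the T0 replicate 1 pair 7 fell and without the T0 replicate 2 pair 1, while the medians were -0.92 and -0.84, and with the Bacillus signal as a covariate 2 fell (median -0.69). Several members of the 11 were less even than Mcm3. Rrm1, the large subunit of the reductase that makes deoxyribonucleotides, was at -1.40, -1.68 and -2.19 by time, and -1.76 ± 0.31 pooled (adjusted p = 0.0104; 0.0864 without CA1 T0 replicate 2). The helicase subunits Mcm5 (-1.40 ± 0.30, adjusted p = 0.0331) and Mcm6 (-1.37 ± 0.29, adjusted p = 0.0335) and the clamp loader gene Rfc4 (-1.18 ± 0.26, adjusted p = 0.0366) each fell short of the threshold without any one of at least 6 single arrays. With the Bacillus signal as a covariate Mcm5 was at -0.85 and Rfc4 at -0.69 (adjusted p = 0.201 and 0.208). The summed linear level of the 22 genes was 2100 to 3710 on the later and 4130 to 5530 on the T0 arrays, so the groups did not overlap.

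**Figure D2:**
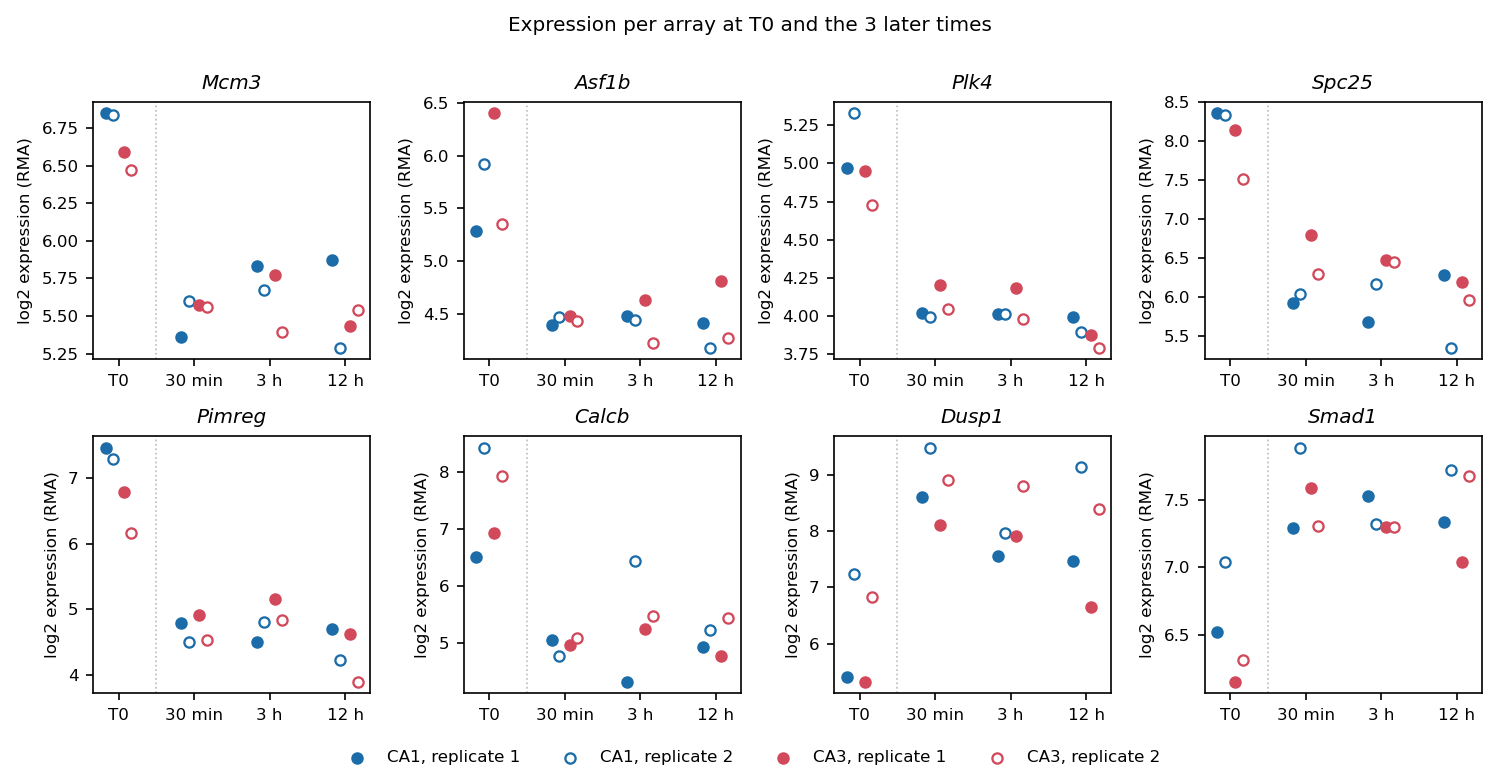
Log2 expression (RMA, vertical axes) of 8 genes on each of the 16 arrays at T0 and the 3 later times, with colour for the region and filled or open points for replicates 1 and 2. For Mcm3 the later arrays lie between 5.29 and 5.87 and the T0 arrays between 6.47 and 6.85, while Dusp1 overlaps, with later arrays from 6.65 and T0 arrays up to 7.24.

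Genes of mitosis fell, several of them by a factor above that of Mcm3. Mki67, the marker of cycling cells that coats mitotic chromosomes, read 4.45 to 5.82 on the later arrays (median 5.27), against 7.44 and 8.40 in CA1 and 7.06 and 7.53 in CA3 at T0. It changed by -2.39 ± 0.24, a level 5.23-fold higher at T0 (adjusted p = 0.000169; 0.053 with pair means). The steps by time were -2.09, -2.29 and -2.78, and 12 h minus 30 min was -0.69 (95% interval -1.26 to -0.12), with an adjusted p of 0.461 for differences among the later times.

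Pimreg, a regulator of the metaphase to anaphase step, stood between 3.90 and 5.16 on the later arrays (median 4.66), against 7.46 and 7.28 in CA1 and 6.78 and 6.16 in CA3 at T0. Spc25, of the kinetochore complex that grips microtubules, stood between 5.35 and 6.79 (median 6.17), against 8.36 and 8.34 in CA1 and 8.14 and 7.51 in CA3 at T0. In both genes T0 was lowest on the CA3 replicate 2 array, and the 2 groups did not overlap. All later values of Pimreg lay below the array medians, where signals are compressed. The changes were -2.30 ± 0.22 for Pimreg and -1.96 ± 0.21 for Spc25 (adjusted p = 0.000169 and 0.000207; 0.0341 for each with pair means). In CA1 the 3 changes of Pimreg were -2.73, -2.72 and -2.91 and in CA3 -1.74, -1.47 and -2.21, and those of Spc25 were -2.37, -2.43 and -2.53 in CA1 and -1.29, -1.37 and -1.75 in CA3. The difference between the fields, CA3 minus CA1, was 0.98 ± 0.38 for Pimreg and 0.98 ± 0.35 for Spc25, with an adjusted p of 1 for both.

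Plk4, the kinase that starts centriole duplication, had 3.79 to 4.20 on the later arrays (median 4.0), against 4.97 and 5.33 in CA1 and 4.95 and 4.73 in CA3 at T0. Its later arrays had an SD of only 0.12 (n = 12). The change of -0.99 ± 0.10 (adjusted p = 0.000169; 0.0341 with pair means) was made below the array medians. Racgap1, a GTPase regulator of the central spindle, fell by 2.16 ± 0.26 (adjusted p = 0.000521; 0.0787 with pair means). Cdca5l1, named for its likeness to the cohesion regulator Cdca5, fell by 1.93 ± 0.22 (adjusted p = 0.000302; 0.053 with pair means). Racgap1 ran from 4.04 to 5.73 on the later arrays, against 6.69 to 7.30 at T0, and Cdca5l1 from 3.79 to 5.18, against 6.11 to 6.78, so neither overlapped.

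Trip13, an ATPase that takes checkpoint complexes apart, fell by 1.18 ± 0.19 and Nde1, a dynein partner needed in dividing neural progenitors, by 1.02 ± 0.18 (adjusted p = 0.00499 and 0.0104). Their values by time were even, at -1.16, -1.16 and -1.21 for Trip13 and -1.08, -0.85 and -1.13 for Nde1. Both missed the threshold without either T0 pair (adjusted p = 0.0582 to 0.175). Plk1, the main mitotic kinase, fell by 0.65 ± 0.13 (adjusted p = 0.0239), and missed it without any one of 3 T0 arrays. Cdkn3, a phosphatase of cyclin-dependent kinases, was less even, with -1.63, -1.75 and -3.11 by time and -2.16 ± 0.43 pooled (adjusted p = 0.0237), also lost without any one of the 4 T0 arrays.

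Of the 24 measured genes of the mitosis list 17 fell and 0 rose, against 1.3% and 0.125% of all genes. The list was chosen with earlier results of these data known, so its counts are a description. All 24 were negative (median -1.49), and the medians at 30 min, 3 h and 12 h were -1.13, -1.45 and -1.72. With the pair block 9 passed, and with pair means 2. Without the T0 replicate 1 pair 10 fell (median -1.4), without the T0 replicate 2 pair 5 (median -1.39), and with the Bacillus signal as a covariate 8 (median -1.23). Of the 17, 5 met the rule of like change. The summed linear level was 856 to 2620 on the later and 2930 to 4830 on the T0 arrays. In bulk tissue, fewer dividing cells and less of these mRNAs per cell cannot be told apart.

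Some genes outside both lists also met the rule of like change. Lmnb1, the B-type lamin of the nuclear envelope, stood between 5.97 and 7.16 on the later arrays (median 6.71), against 8.34 and 7.91 in CA1 and 8.03 and 7.58 in CA3 at T0, a change of -1.39 ± 0.18 (adjusted p = 0.000836). Tmpo, a lamina-associated protein of the inner nuclear membrane, changed by -1.18 ± 0.19 (adjusted p = 0.00499; 0.175 without the T0 replicate 2 pair). The other probe sets of Lmnb1 (2) and Tmpo (1) had means of 4.05 to 4.17 and changes between -0.02 and 0.07, so neither call has the backing of a second probe set.

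Hmgn1, a nucleosome-binding protein of open chromatin, read 10.07 to 11.03 on the later arrays (median 10.64), against 11.65 and 11.59 in CA1 and 11.52 and 11.10 in CA3 at T0. The groups lay close but did not overlap, and the change was -0.90 ± 0.13 (adjusted p = 0.00177; 0.0629 with pair means). With a further cyclic loess normalization it was -0.70 (adjusted p = 0.0614). Zfp217, a zinc finger transcription factor, changed by -1.17 ± 0.12 (adjusted p = 0.000169; 0.0551 with pair means), with later arrays from 5.13 to 6.06 against 6.55 to 7.03 at T0. Rassf3, a Ras association domain protein, changed by -1.08 ± 0.12 (adjusted p = 0.000302; 0.0858 with pair means), from 4.39 to 5.2 on the later arrays against 5.53 to 5.96 at T0. Its 6 changes lay between -0.87 and -1.16.

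Fam111a, a protease that acts at stalled replication forks, passed with pair means (adjusted p = 0.0341) and in all 24 leave-out fits. Its pooled change was -2.04 ± 0.23, but its CA3 change at 30 min, -1.13, was smaller than the other 5 (-1.98 to -2.45), so the ratio of 0.463 kept it outside the rule. Usp1, which removes ubiquitin from repair proteins, fell by 1.24 ± 0.25 (adjusted p = 0.0251), and its second probe set, with a change of -0.85, passed as well (adjusted p = 0.0295). Usp1 missed the threshold without any one of the 4 T0 arrays (adjusted p = 0.065 to 0.137).

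Of the lists of cell type markers, those of neural progenitors, of fibroblasts and meninges and of inhibitory neurons held 1 gene of like fall each. These were Nes, Postn and Reln, beside 64 such genes among all 10411. Nes, the intermediate filament of neural progenitors and reactive glia, ran from 6.11 to 7.28 on the later arrays (median 6.79), against 8.71 and 8.70 in CA1 and 7.49 and 8.10 in CA3 at T0. It fell by 1.45 ± 0.17 (adjusted p = 0.000302; 0.0615 with pair means) and lay just inside the rule, with a ratio of 0.5. It was the one member called of 15 measured progenitor markers (median -0.09), against 1.3% of all genes called lower. S100a11, a calcium-binding protein, fell by 1.49 ± 0.18 (adjusted p = 0.000503), with later arrays at 5.96 to 6.88 against 7.39 to 8.27 at T0. Without the T0 replicate 2 pair S100a11 was at -1.24 (adjusted p = 0.0531).

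A set of genes had T0 levels that differed between the replicates. Calcb, the beta form of the vasodilator peptide CGRP, read 4.33 to 6.44 on the later arrays (median 5.07), against 6.51 and 8.42 in CA1 and 6.92 and 7.93 in CA3 at T0. Ptgs1, the constitutive cyclooxygenase, read 4.25 to 5.76 (median 5.15), against 6.13 and 7.78 in CA1 and 6.16 and 8.04 in CA3 at T0. In both, replicate 2 was the higher T0 array in each field by over 1 log2 unit, and replicate 1 was still above every later array. Pooled, Calcb changed by -2.30 ± 0.34 and Ptgs1 by -1.94 ± 0.34 (adjusted p = 0.00292 and 0.00981), and without the T0 replicate 2 pair by -1.57 and -1.06 (adjusted p = 0.167 and 0.317). Ptgs1 also missed the threshold without CA1 T0 replicate 2 alone (adjusted p = 0.0831). Pla2g4a, the phospholipase that frees arachidonic acid for cyclooxygenases, had closer T0 arrays, at 7.49 and 7.81 in CA1 and 7.25 and 7.45 in CA3, and later arrays from 5.11 to 6.88. Its change was -1.66 ± 0.28 (adjusted p = 0.00951; 0.0265 with the pair block; 0.0721 without the CA1 T0 replicate 2 array).

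Postn, a matrix protein of fibroblasts and meninges, showed the largest pooled change of the 64, -2.88 ± 0.60, and one of the widest spreads. Its later arrays read 5.22 to 8.90 (median 6.83), against 8.74 and 10.24 in CA1 and 8.63 and 11.08 in CA3 at T0, so the groups overlapped (adjusted p = 0.0301; 0.375 with pair means). Reln, the secreted guidance protein of Cajal-Retzius cells and some interneurons, read 6.68 to 8.80 (median 7.61), against 8.96 and 10.33 in CA1 and 8.46 and 10.53 in CA3 at T0. Its change of -1.90 ± 0.39 (adjusted p = 0.028) also overlapped. Without the T0 replicate 2 pair Postn was at -1.89 and Reln at -1.04 (adjusted p = 0.64 and 0.655). Both also missed the threshold without any one of 3 T0 arrays, CA1 replicates 1 and 2 and CA3 replicate 2 (adjusted p = 0.0501 to 0.181), and Postn without CA3 T3h replicate 2 (adjusted p = 0.0507). The second probe set of Reln, with a mean of 4.16, was at -0.25. Reln was the one called of 12 inhibitory neuron markers (median 0.12), against 1.3% of all genes called lower. The interneuron enzyme Gad1 was at -0.06 ± 0.55.

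Svil, which ties actin to the membrane, changed by -1.75 ± 0.40 and Cpt1a, which admits long-chain fatty acids to mitochondria, by -1.63 ± 0.37 (adjusted p = 0.046 for each). Both missed the threshold without any one of 11 or more single arrays, and their second probe sets were at 0.05 and -0.11. With the Bacillus signal as a covariate Cpt1a was at -0.98 (adjusted p = 0.265). Fn1, the matrix protein fibronectin, fell by 2.12 ± 0.39 (adjusted p = 0.0131), with -1.5 at 30 min and -2.54 at 12 h, outside the rule. Fn1 missed the threshold without any one of the same 3 T0 arrays (adjusted p = 0.0539 to 0.085). Fn1 and Postn were the 2 of 16 fibroblast and meningeal markers that fell, against 1.3% of all genes. With the pair block or with pair means 0 of the 16 passed. The summed level of that list, which includes Postn and Fn1, was 1170 to 3400 on the later and 2560 to 7120 on the T0 arrays. Its median change was -0.31, and the part of its other members in the results for Postn and Fn1 was not tested.

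Cd93, a surface receptor found on myeloid cells and endothelium, fell by 2.89 ± 0.36 and passed with pair means (adjusted p = 0.000744 and 0.0364). It read 4.24 to 6.04 on the later arrays (median 4.60), against 7.75 and 8.69 in CA1 and 6.07 and 7.84 in CA3 at T0. The CA3 replicate 1 array of T0 reached almost to the later range, and without the T0 replicate 2 pair Cd93 was at -2.21 (adjusted p = 0.0592). Its ratio of 0.405 lay outside the rule because the fall was smaller in CA3, and its second probe set was at -0.02. Fgr, a Src family kinase of myeloid cells, fell by 0.77 ± 0.11, and RT1-DMb, which helps load peptides on class II molecules, by 1.39 ± 0.26 (adjusted p = 0.00254 and 0.0152), both evenly (-0.82, -0.65 and -0.85 for Fgr, -1.30, -1.29 and -1.58 for RT1-DMb) and both short of the threshold without the T0 replicate 2 pair (adjusted p = 0.156 and 0.466). RT1-DMb also fell short without CA1 or CA3 T0 replicate 2 alone (adjusted p = 0.122 and 0.0908).

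Of the 19 measured microglia markers 18 were negative, with a median of -1.10. Cd93 alone passed, against 1.3% of all genes called lower and 0.125% higher. Their medians by time were -0.55, -0.67 and -1.89, lowest at 12 h. The complement gene C1qa was at -1.10 ± 0.45 and the calcium-binding marker Aif1 at -1.25 ± 0.54 (adjusted p = 0.306 and 0.346). The summed level of the list was 2730 to 14200 on the later and 12500 to 18400 on the T0 arrays. The list includes Cd93, so its sum is not separate from that gene. Fgr and RT1-DMb changed more evenly over time than the list medians. The part of the list in these genes and in the mitosis genes was not tested. Endothelial and mural markers, 15 measured, had a median of -0.02 and 0 calls, and astrocyte markers, 14 measured, a median of 0.02 and 0 calls.

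**Figure D3:**
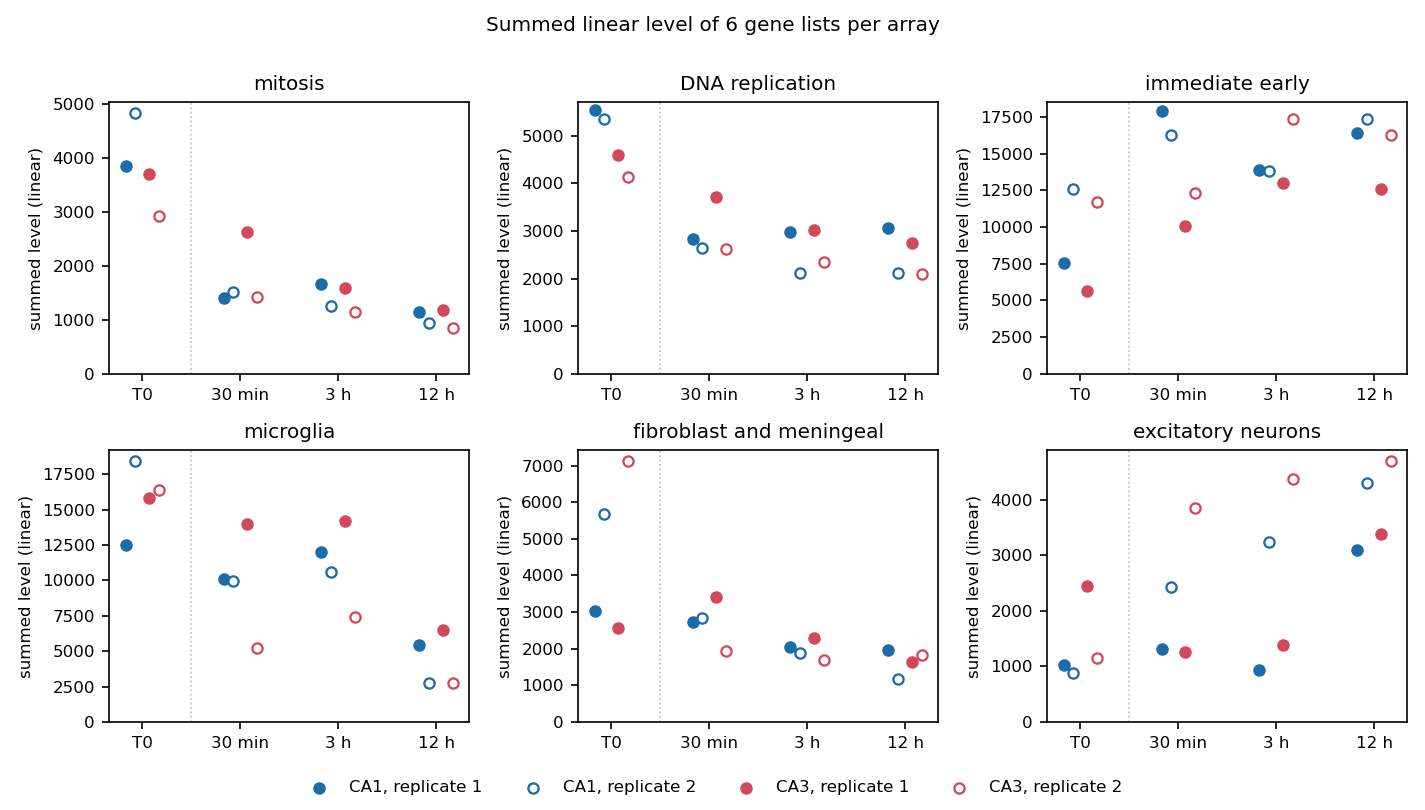
Summed linear level (vertical axes, from 0) of 6 gene lists on each of the 16 arrays, at T0 and the 3 later times, with colour for the region and filled or open points for replicates 1 and 2. The mitosis sums lie at 856 to 2620 at the later times and at 2930 to 4830 at T0, while the microglia sums overlap, with 2730 to 14200 at the later times and 12500 to 18400 at T0.

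Only 4 genes rose by a like amount. Smad1, which carries signals of bone morphogenetic proteins to the nucleus, read 7.04 to 7.89 on the later arrays (median 7.33), against 6.52 and 7.04 in CA1 and 6.15 and 6.31 in CA3 at T0. The lowest later array and the highest T0 array nearly met. Smad1 rose by 0.94 ± 0.15 (adjusted p = 0.00447), by 1.01, 0.86 and 0.94 at the 3 times, and it passed without each single array. It missed the threshold with the pair block (adjusted p = 0.0504), with pair means (adjusted p = 0.153) and without the T0 replicate 1 pair (0.77, adjusted p = 0.0743). Its second probe set was at 0.40 (adjusted p = 0.392).

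Dusp1, the immediate early phosphatase that switches off MAP kinases, read 6.65 to 9.49 on the later arrays (median 8.26), against 5.41 and 7.24 in CA1 and 5.32 and 6.82 in CA3 at T0. Both T0 replicate 1 arrays were far below both replicate 2 arrays, which lay within the later range. Its rise of 2.05 ± 0.46 (adjusted p = 0.042) was at 2.58, 1.86 and 1.72 by time, and at 1.22 without the T0 replicate 1 pair (adjusted p = 0.393). Of the 24 leave-out fits Dusp1 missed the threshold in 18. The second Dusp1 probe set, with a mean of 3.98, was at 0.02. Sqstm1, the autophagy receptor and NRF2 target, rose by 0.94 ± 0.21 (adjusted p = 0.0374; 0.64 without the T0 replicate 2 pair), with 3 further probe sets at 0.03 to 0.27. It missed the threshold in 15 of the 24 leave-out fits and was at 0.55 with the Bacillus signal as a covariate (adjusted p = 0.209). Fitm2, needed for lipid droplets to bud, rose by 0.61 ± 0.11 (adjusted p = 0.0104; 0.0528 to 0.0715 without any one of CA1 T0 replicates 1 and 2 and CA3 T0 replicate 2), with later arrays at 7.14 to 7.68 against 6.63 to 7.05 at T0.

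Of 43 measured immediate early genes (median change 0.76) 4 rose and 0 fell, against 0.125% and 1.3% of all genes. The 4 were Dusp1, the orphan receptor Nr4a3 (2.36 ± 0.53, adjusted p = 0.0426) and the growth arrest genes Gadd45b (2.28 ± 0.47, adjusted p = 0.0283) and Gadd45g (2.51 ± 0.49, adjusted p = 0.0192). By time, Gadd45b was at 1.30, 2.26 and 3.27 and Gadd45g at 1.63, 2.48 and 3.41, outside the rule (adjusted p = 0.142 and 0.263 for differences among the later times). Nr4a3 stood at 2.36, 1.97 and 2.75, with a ratio of 0.478. The second Nr4a3 probe set, with a mean of 5.35, was at 0.305 (adjusted p = 0.711). All 4 missed the threshold without either T0 pair (adjusted p = 0.0693 to 0.548) and with the pair block (adjusted p = 0.0885 to 0.216), and the list then held 0 calls without either pair, with medians of 0.38 without replicate 1 and 0.91 without replicate 2. Fos was at 1.34 ± 0.43 and Egr1 at 0.60 ± 0.74 (adjusted p = 0.172 and 0.841), and Egr1 at T0 read 6.85 in CA3 replicate 1 and 10.02 in CA3 replicate 2, so that these T0 replicates differed by more than the pooled change. Summed over the list, the later arrays stood at 10100 to 17900 and the T0 arrays at 5660 to 12600.

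The stress response lists given here held 0 or 1 call each, where 0.125% of all genes were called higher and 1.3% lower. Of 26 integrated stress response genes 1 rose, Slc7a5, an amino acid transporter (0.64 ± 0.13, adjusted p = 0.0301; 0.0756 to 0.137 without any one of the 4 T0 arrays), and the median was 0.33. The summed level of the 26 was 5030 to 10100 on the later and 4940 to 5140 on the T0 arrays. Only CA3 T30m replicate 1, at 5030, lay within the T0 range. Of 24 NRF2 targets 1 rose, Sqstm1, and the median was 0.04. The quinone reductase Nqo1 was at -0.03 ± 0.27 and the heme oxygenase Hmox1 at 0.58 ± 0.42, neither past the threshold. Of 14 heat shock genes, 10 p53 targets and 18 hypoxia targets 0 passed, with medians of 0.12, -0.11 and -0.10. Of 20 listed ribosomal protein genes 19 were negative (median -0.55) and 0 passed. Rps15a, a ribosomal protein gene outside that list and named after its value was seen, was called lower (-0.83 ± 0.17, adjusted p = 0.0291; 0.166 without CA1 T0 replicate 2). Excitatory neuron markers, 13 measured, and synaptic vesicle and neurite growth genes, 27 measured, had medians of 1.00 and 1.07 with 0 past the threshold, and the neuron sums were 936 to 4700 on the later and 877 to 2440 on the T0 arrays.

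**Figure D4:**
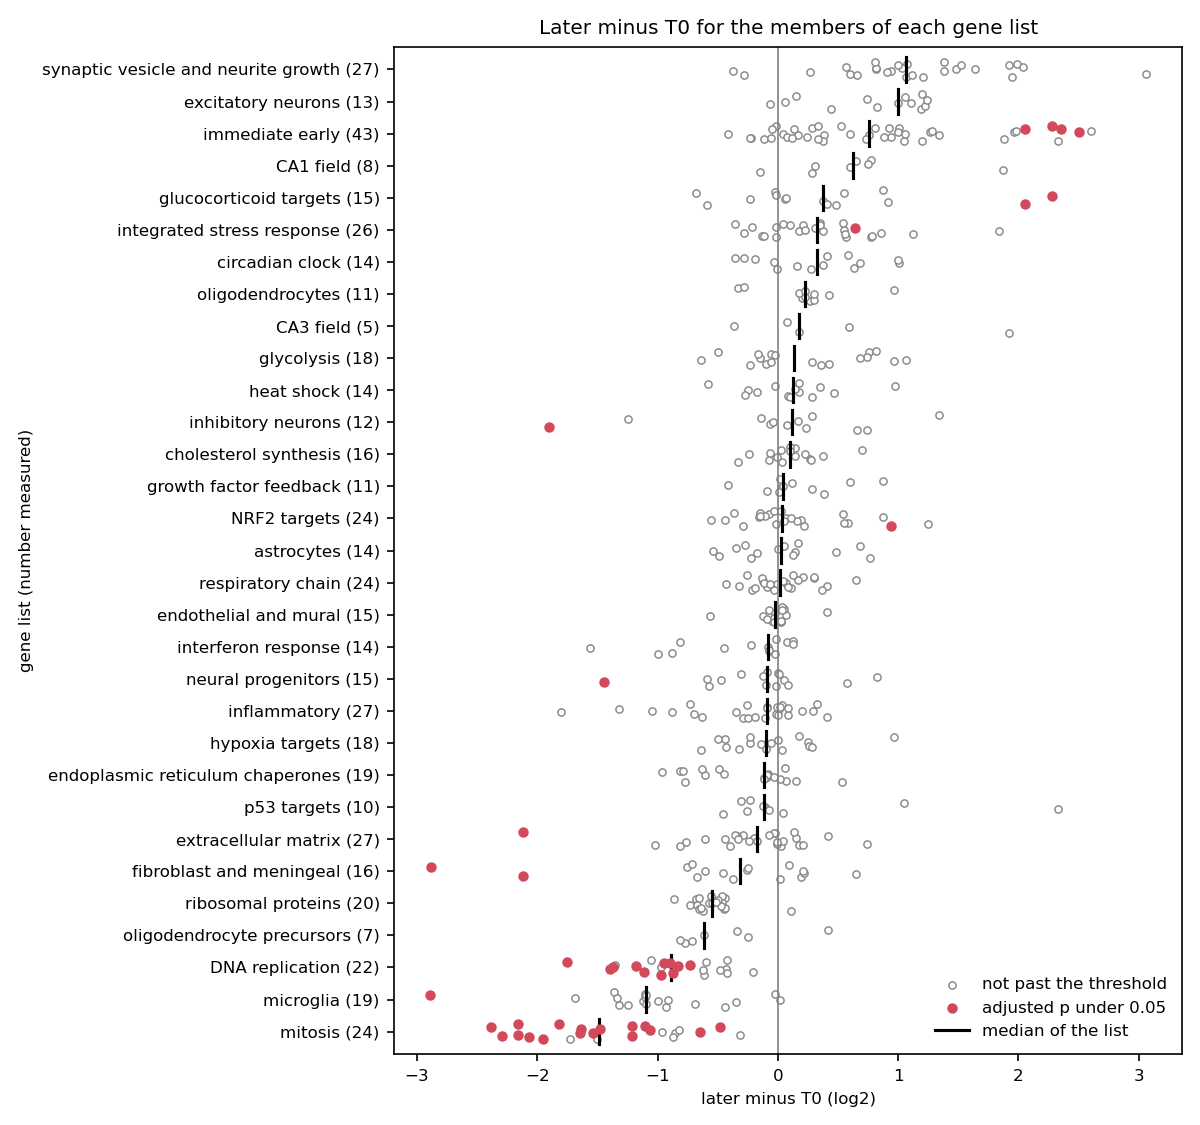
Later minus T0 on the log2 scale (horizontal axis) for every measured member of 31 gene lists, ordered by median (black bars), with filled points for members past adjusted p 0.05. The mitosis list, with a median of -1.49, holds 17 filled points, and the synaptic vesicle and neurite growth list, with a median of 1.07, holds 0.

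Differences among the later times were tested over all probe sets. The contrasts use no T0 level, but the T0 arrays count toward the residual spread of the fit. In limma's F test 2 probe sets differed (0.0126%), those of Chac1 and Glce, with an adjusted p of 0.00524 for each. For Chac1, which degrades glutathione, 12 h minus 30 min was 2.29 (95% interval 1.85 to 2.72). For the heparan sulfate epimerase gene Glce it was 1.39 (1.09 to 1.69). Both genes were picked after their values were seen, and neither was called for later minus T0 (adjusted p = 0.118 and 0.787). At an unadjusted p under 0.05 there were 1775 probe sets in this fit, against 793 expected by chance. Replicate numbers were shared across the later times, with correlations of deviations from 0.296 to 0.657 in 6 of 6 comparisons, and with the replicate number as a block 12 probe sets differed. With pair means 0 differed (limma; 777 at an unadjusted p under 0.05). A missed threshold does not show that levels were equal, and the rule of like change itself uses the changes at 30 min and 12 h, so the narrow intervals of its genes between these times were set by that choice. Over all genes called, the median change was -0.87, -0.99 and -1.13 at the 3 times for those that fell and 0.80, 0.91 and 1.23 for those that rose.

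Between the fields, 0 probe sets (0%) differed in their change in limma's fit of all arrays. Tested on CA3 minus CA1 within pairs, 0 differed as well (limma). At an unadjusted p under 0.05 there were 63 and 352, both below the 793 expected by chance. The fit of all arrays leaves out that the arrays of a pair deviate together. A missed threshold here does not show that the fields changed alike. The smallest p-values belonged to Bard1, a partner of Brca1, to Cmss1, to the nuclear pore gene Nup155 and to the Wnt antagonist Sfrp1, with differences of the change (CA3 minus CA1) from 0.72 to 0.96. In each, the CA1 arrays of T0 were the higher ones. Leaving out the CA3 T0 replicate 1 array gave 6 calls.

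The edges of the rule were close. Glrx3, an iron-sulfur chaperone, lay just inside with Nes at a ratio of 0.501 (-0.78 ± 0.15), and just outside lay the mitotic transcription factor Foxm1 at 0.499 (-0.78 ± 0.18) and the actin nucleator Diaph3 at 0.497 (-0.91 ± 0.15). A ratio of 0.4 would have given 107 genes and a ratio of 0.67 would have given 11. Of the 5 that passed with pair means, the 11 held Mcm3 and Asf1b. They did not hold Plk4 (ratio 0.593), Spc25 (0.508) or Pimreg (0.505). The least even of the genes that fell were Mdm1, Dock1, Spc24, Parpbp and Rasgrp3, with ratios of 0.0788 to 0.247, and in all 5 the smallest change was in CA3 at 30 min or 3 h. Among those that rose, Ablim1, Gadd45b, Gadd45g, Gnptg and Tbc1d22al had ratios of 0.219 to 0.378.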

How the data were processed

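Expression in rat hippocampal slice cultures, fields CA1 and CA3, was measured on 16 one-colour Affymetrix arrays, 2 for each field and time. The deposited values are log2 expression that the authors obtained by RMA, as named in the submitters' processing notes. RMA in general corrects background and brings arrays to a common distribution. The version and settings used are not stated. Of 15923 probe sets, 57 controls were set aside and 15866 tested. GEO's platform annotation gave 1 gene for 12783, several for 312 and none for 2771, and 12748 matched RefSeq (GRCr8). A gene was represented by its probe set with the highest mean.

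The later arrays were compared with T0 in limma 3.58.1 (R 4.3.3, lmFit and eBayes) with region as a term, and p-values were adjusted over all probe sets by Benjamini-Hochberg. The same adjustment was used for the interaction with region, for the F test among the later times, and for 24 fits that leave out arrays. All p-values in the text come from limma. On simulated data the fit was checked for returning the size of the changes put in, and no rate of false calls is given. The simulated pairs were independent of each other, while in the data replicate numbers correlated across the later times. The members and gene lists were chosen with earlier results of these data known. Genes were named by fixed rules: the 12 of each direction with the largest smallest change, up to 4 called and 3 well-known members of a list, the 5 least even of each direction, those at the edge of the ratio, and the 4 with the smallest p between fields. Genes named outside these rules, among them those named for passing with pair means or with the pair block, are listed in the text.

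Deviations from the group mean of the CA1 and CA3 arrays with the same time and number correlated at 0.568 to 0.668 at all 4 times, so they were taken as pairs and the pair was used as a random block, or averaged, beside the fit of all arrays. Numbers also correlated between the later times (0.296 to 0.657), so the replicate block is given beside the differences among those times, but not in all comparisons of T0 with a later time (-0.236 to 0.308). What the number stands for, and whether replicates come from separate animals or cultures, is not given in the sources used here, so p-values measure the spread between these arrays. Alternatives were other scalings, filters on dim probe sets, covariates, array weights and left-out times. With no counts behind the values, the number of arrays limits the precision.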

Additional observations from a re-analysis of the deposited data

Results flagged for a closer look

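Over 96 named genes, 5 had a T0 array set apart from the other 3 by Dixon's test at the 95% level, which chance alone gives in about 1 in 20 groups of 4. The microglia marker Aif1 read 6.79 on CA1 replicate 1, against 7.53 to 7.63 on the other T0 arrays. On CA3 replicate 1 the myeloid kinase Fgr read 5.16 (others 5.54 to 5.60), the replication gene Gins1 5.9 (others 6.30 to 6.31) and the glutamate transporter gene Slc17a7 8.54 (others 5.73 to 6.04). The kinetochore gene Spc24 read 7.99 on CA1 replicate 2 (others 7.44 to 7.52). The nuclear pore gene Nup155 moved in opposite directions in the fields: each later CA1 array was below and each later CA3 array above the T0 mean of its field. Its change in CA3 exceeded that in CA1 by 0.873, with an unadjusted p of 0.00471 and an adjusted p of 1 for the interaction.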

How the results depend on the processing

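The counts depended on the settings, while no called gene that is named changed direction. Against 185 probe sets and 68 like-change genes, a fit of 8 group means gave 104 and 30, pair means 9 and 5, the pair as a random block 44 and 24, a mean of 6 or more 72 and 27, the Bacillus control covariate 45 and 19, array weights 1186 and 121, and leaving out T12h 52 and 29. Leaving out the arrays of low Bacillus signal, chosen after seeing the data, gave 65 and 24. The replicate block gave 375 probe sets (12 among the later times), all 185 among them; the replicate numbers of T0 and later arrays did not correlate in a steady way (-0.236 to 0.308; 3 of 6 over 0.1), while those of different later times did (0.296 to 0.657), so later pairs of 1 number are not independent of each other and the number was not taken to pair T0 with them. The pair block left each of the 4 genes of like rise short of the threshold. The GAPDH covariate gave 368, a test against a change of 0.5 gave 14, and leaving out T30m gave 129 like-change genes. Without the arrays of low Bacillus signal or without T12h, 9 mitosis genes fell under each, 4 and 5 replication genes fell, and 2 and 0 immediate early genes rose. Ratios of 0.4 and 0.67 gave 107 and 11. With cyclic loess 33 of 194 calls were higher, against 19 of 185.

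Leaving out single arrays gave 47 to 273 probe sets and 21 to 115 like-change genes; leaving out pairs gave 24 to 283 and 15 to 113. The 185 moved by over 1.5 times without CA1 T0 replicate 1 (104), CA1 T0 replicate 2 (47), CA3 T0 replicate 2 (79) or CA3 T3h replicate 2 (119), and without the pairs T30m replicate 1 (283, with 113 like-change genes), T30m replicate 2 (122 and 27), T12h replicate 1 (107 and 33) or T0 replicate 2 (24 and 15); without T3h replicate 2 there were 38 like-change genes. The difference between fields gave 0 to 6 calls without single arrays (6 without CA3 T0 replicate 1) and 3 without the T0 replicate 1 pair. The 2 calls among the later times became 0 with pair means, without T12h or without the low-signal arrays, 1 at a mean of 6 or more, 5 without T3h, 6 with weights, 9 without T30m and 94 with the GAPDH covariate, 0 to 5 without single arrays and 0 to 7 without pairs, with 0 without either T0 pair or T30m replicate 2, 1 without either T12h pair, 6 without either T3h pair and 7 without T30m replicate 1. Every T0 level rests on 2 pairs.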

Other observations

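Some lists had medians away from 0 with 0 calls, where 1.3% of all genes were called lower and 0.125% higher. Of 27 synaptic vesicle and neurite growth genes 25 were positive in later minus T0, with a median of 1.07 and 0 past the threshold. Snap25, of the vesicle fusion machinery, was at 1.38 and the kinase gene Camk2a at 1.11 (limma adjusted p = 0.587 and 0.338). The value of Snap25 was 0.78 without CA1 T0 replicate 2, 2.24 without CA3 T0 replicate 1, 2.79 without the T0 replicate 1 pair and -0.03 without the T0 replicate 2 pair, so it rests on which T0 arrays are used, and that of Camk2a was 0.71 with the Bacillus signal as a covariate. The summed linear level of 20 ribosomal protein genes was 29400 to 58800 on the later and 59100 to 79000 on the T0 arrays, so the groups did not overlap though 0 genes of the list passed. Lists of oligodendrocyte precursors (7 genes, median -0.61), oligodendrocytes (11, median 0.23), CA1 field markers (8, median 0.63) and circadian genes (14, median 0.33) likewise held 0 calls.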
